A study of Mus musculus with 27 samples.

Results

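Box H/ACA small nucleolar RNAs (snoRNAs) and small Cajal body RNAs (scaRNAs) were followed through 3 subcellular fractions of 3 kinds of mouse cell. The set was taken by name, as every line (entry) of the deposited small RNA table whose gene symbol begins with Snora or Scarna. It held 28 of the 1013 entries, 26 Snora and 2 Scarna, all in the deposited class snoRNA, which has 239 entries. The cells were mESC, the E14 embryonic stem cell line kept with LIF on gelatin; mNPC, a neural progenitor line made in the depositing laboratory and given EGF and FGF at 10 ng/ml; and mCtx, cortical neurons in primary culture for 5 days. The labels name no further genotype or treatment, each stem or progenitor group is a single line, and the sources used here give neither the age nor the number of animals behind the neurons. RNA was taken from chromatin, soluble nucleoplasm and cytoplasm, which gives 9 groups of 3 libraries and a total of 27. Each group of 3 is labelled as biological replicates, with no word on whether the cultures were separate, so the spread that the p-values measure may be technical.

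H/ACA RNAs fold into hairpins joined by a short hinge, the H box, and end in an ACA box just before the 3′ end. Together with dyskerin and its partner proteins they pair with a target RNA and direct the conversion of a chosen uridine to pseudouridine. The Snora RNAs act in the nucleolus, mostly on ribosomal RNA; the scaRNAs act in Cajal bodies on the small nuclear RNAs of the spliceosome, and several of them belong instead to the box C/D family, which directs ribose methylation. In mammals nearly all are cut out of the introns of host genes after splicing, so each is made with the transcript of its host.

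The values are RPM, read numbers that the authors scaled to the size of each library. RNA under 200 nt was made into libraries of 120 to 160 bp, adapters included, and read over 100 bp, so a Snora RNA, of 121 to 205 nt here, could enter only as a shorter fragment. Each library had a lowest value above 0. For chromatin it lay from 45.2 to 54.8 RPM in mESC libraries, from 32.5 to 59.1 RPM in those of mNPC and from 19.4 to 25.1 RPM in those of mCtx. In the other 18 libraries it was 5.16 to 42.4 RPM. Anything lower was listed as 0, so a 0 is not read as absence, and no fold is given against a group that holds one. Read depth was not given and no counting interval could be formed. Cell types were checked by marker miRNAs. The summed miR-290 to miR-295 and miR-302 entries reached 19861 to 93945 RPM in mESC and were listed at 0 in the 9 mNPC and 9 mCtx libraries, and miR-124 reached 1001 to 4623 RPM in mCtx against 0 in mNPC. The marker fixed for mNPC, miR-9, did not set it apart from mCtx, at 34835 to 110311 RPM in mNPC, 45438 to 139595 RPM in mCtx and 0 to 752 RPM in mESC. Marker miRNAs of other cells were also present: the endothelial and mesenchymal list had sums of 949 to 7524 RPM (mESC), 112 to 345 RPM (mNPC) and 2192 to 3975 RPM (mCtx), the microglia and blood list 126 to 1774, 0 and 0 to 44.5 RPM, and the glia list 0, 0 to 288 and 50.2 to 101 RPM. Their part in the differences between cell types was not tested.

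The named entries were checked against their sequences. All 28 matched a gene of the GENCODE vM21 annotation of the GRCm38 genome in identifier and position. Of the 26 Snora RNAs, 21 carried ACA exactly 3 bases before the 3′ end, and Snora28, Snora43 and Snora17 carried it 2 bases before the end. None was found there in Snora81 or Snora44. By comparison ACA stood 3 bases before the end in 0 of 78 named box C/D snoRNAs and in 22.6% of 115 snoRNA entries with predicted-gene (Gm) names. An H box, ANANNA on the RNA strand starting between 35% and 65% of the length, was found in 25 of 26 Snora RNAs, all but Snora65, and in 42.3% of the C/D RNAs, so those letters alone separate the families less than the ACA tail does. The C box letters TGATGA occurred in 0 of 26 Snora RNAs, in 69.2% of the C/D RNAs and in both Scarna entries.

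Sequences are shown for the 4 entries with the highest mean level in chromatin, among them the higher of the 2 scaRNAs, and for Snora75, which had the largest called difference between cell types in chromatin. All are RNA-strand sequences from the GENCODE vM21 transcripts, written with T. Capitals mark ANANNA in the middle of the RNA and the ACA box, or, in Scarna9, TGATGA and the CTGA (D box) nearest the 3′ end.
Snora16a: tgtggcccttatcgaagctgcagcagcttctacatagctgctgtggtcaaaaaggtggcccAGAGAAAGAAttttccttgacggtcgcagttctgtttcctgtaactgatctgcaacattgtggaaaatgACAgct
Scarna9: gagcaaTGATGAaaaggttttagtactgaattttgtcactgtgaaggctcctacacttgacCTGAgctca
Snora52: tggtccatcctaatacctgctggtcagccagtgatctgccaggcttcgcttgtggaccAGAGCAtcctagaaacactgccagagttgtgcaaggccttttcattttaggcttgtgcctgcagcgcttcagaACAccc
Snora31: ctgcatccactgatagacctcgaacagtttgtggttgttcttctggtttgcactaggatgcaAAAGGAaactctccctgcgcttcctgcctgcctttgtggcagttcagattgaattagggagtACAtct
Snora75: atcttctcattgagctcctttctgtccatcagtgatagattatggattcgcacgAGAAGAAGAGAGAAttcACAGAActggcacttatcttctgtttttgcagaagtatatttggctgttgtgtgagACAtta
Snora16a lies at chr4:132309465-132309600 (plus strand) in Snhg12, a non-coding snoRNA host gene, where it is intronic in some transcripts and exonic in others. Scarna9, at chr9:15326264-15326333 (minus strand), is in an intron of Cep295, the gene of a centrosomal protein. The Scarna9 entry is 70 nt long, with a C and a D box and no H or ACA box, so these letters go against reading it as an H/ACA RNA; the human RNA of that name is a C/D box guide of U2 snRNA. Snora52, at chr7:141448803-141448939 (plus), is in Rplp2, Snora31, at chr14:75847905-75848034 (plus), in Tpt1, the gene of a translationally controlled tumour protein, and Snora75, at chr1:86351169-86351301 (minus), in Ncl, which encodes nucleolin.

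Host genes were of several kinds. In the annotation 25 of the 28 lay in an intron of at least 1 transcript of a gene on the same strand, and no such host was found for Snora57, Snora43 or Snora17. Ribosomal protein genes hosted Snora33 (Rps12), Snora21 (Rpl23), Snora64 (Rps2), Snora65 (Rpl12), Snora7a (Rpl32), Snora3 (Rpl27a), Snora52 (Rplp2), Snora62 (Rpsa) and Snora69 (Rpl39). Non-coding snoRNA host genes held 5: Snora16a, Snora44 and Snora61 in Snhg12, Snora24 in Snhg8 and Snora73a in Snhg3. Translation factor genes held Snora28 (Eif5), Snora81 (Eif4a2) and Snora41 (Eef1b2). Hosts of other kinds held Snora31, Snora75, Snora26 (Dancr, a non-coding RNA), Snora34 (Kansl2), Snora23 (Ipo7, a nuclear import receptor), Scarna9, and Scarna10 (Ncapd2, a condensin subunit). Of the 28, 11 had another annotated snoRNA gene at least 95% identical over at least 90% of the length, so how the authors' counting divided reads among them is not known; these were Snora16a, Snora21, Snora26, Snora3, Snora41, Snora43, Snora57, Snora65, Snora68, Snora73a and Snora81. Snora34 also overlaps the mature miR-1291 entry on the same strand.

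Before the results, 1 pattern in the libraries needs stating. Snora16a, the entry with the highest single value, was listed at 7670.0, 6352 and 0 RPM in mESC chromatin and at 2939, 2918 and 0 RPM in mNPC chromatin. The third library of each group thus held a 0 beside values more than 10 times the highest lower limit of any library. Snora61, 639 bases downstream in the same host, read 0, 672 and 0 RPM in mESC chromatin. These entries are therefore given library by library, and every sum below is given with and without Snora16a.

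All 28 entries were above 0 in at least 1 chromatin library, 16 in at least 1 nucleoplasm library and 2 in at least 1 cytoplasm library. Of the 252 values in each fraction, 121 were above 0 in chromatin, 56 in nucleoplasm and 4 in cytoplasm. Of all 1013 entries, 335 to 484 were above 0 per chromatin library, 336 to 615 per nucleoplasm library and 288 to 506 per cytoplasm library. The 4 cytoplasmic values were those of Snora16a in mESC, at 278, 140.1 and 96.0 RPM, and a single one of Scarna9, 10.1 RPM in mCtx replicate 3. Within chromatin, 25 entries were above 0 in mESC, 17 in mNPC and 12 in mCtx, although the mCtx libraries listed lower values than the others. Only 6 were above 0 in all 9 chromatin libraries: Scarna9, Snora31, Snora44, Snora52, Snora69 and Snora7a.

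**Figure D1:**
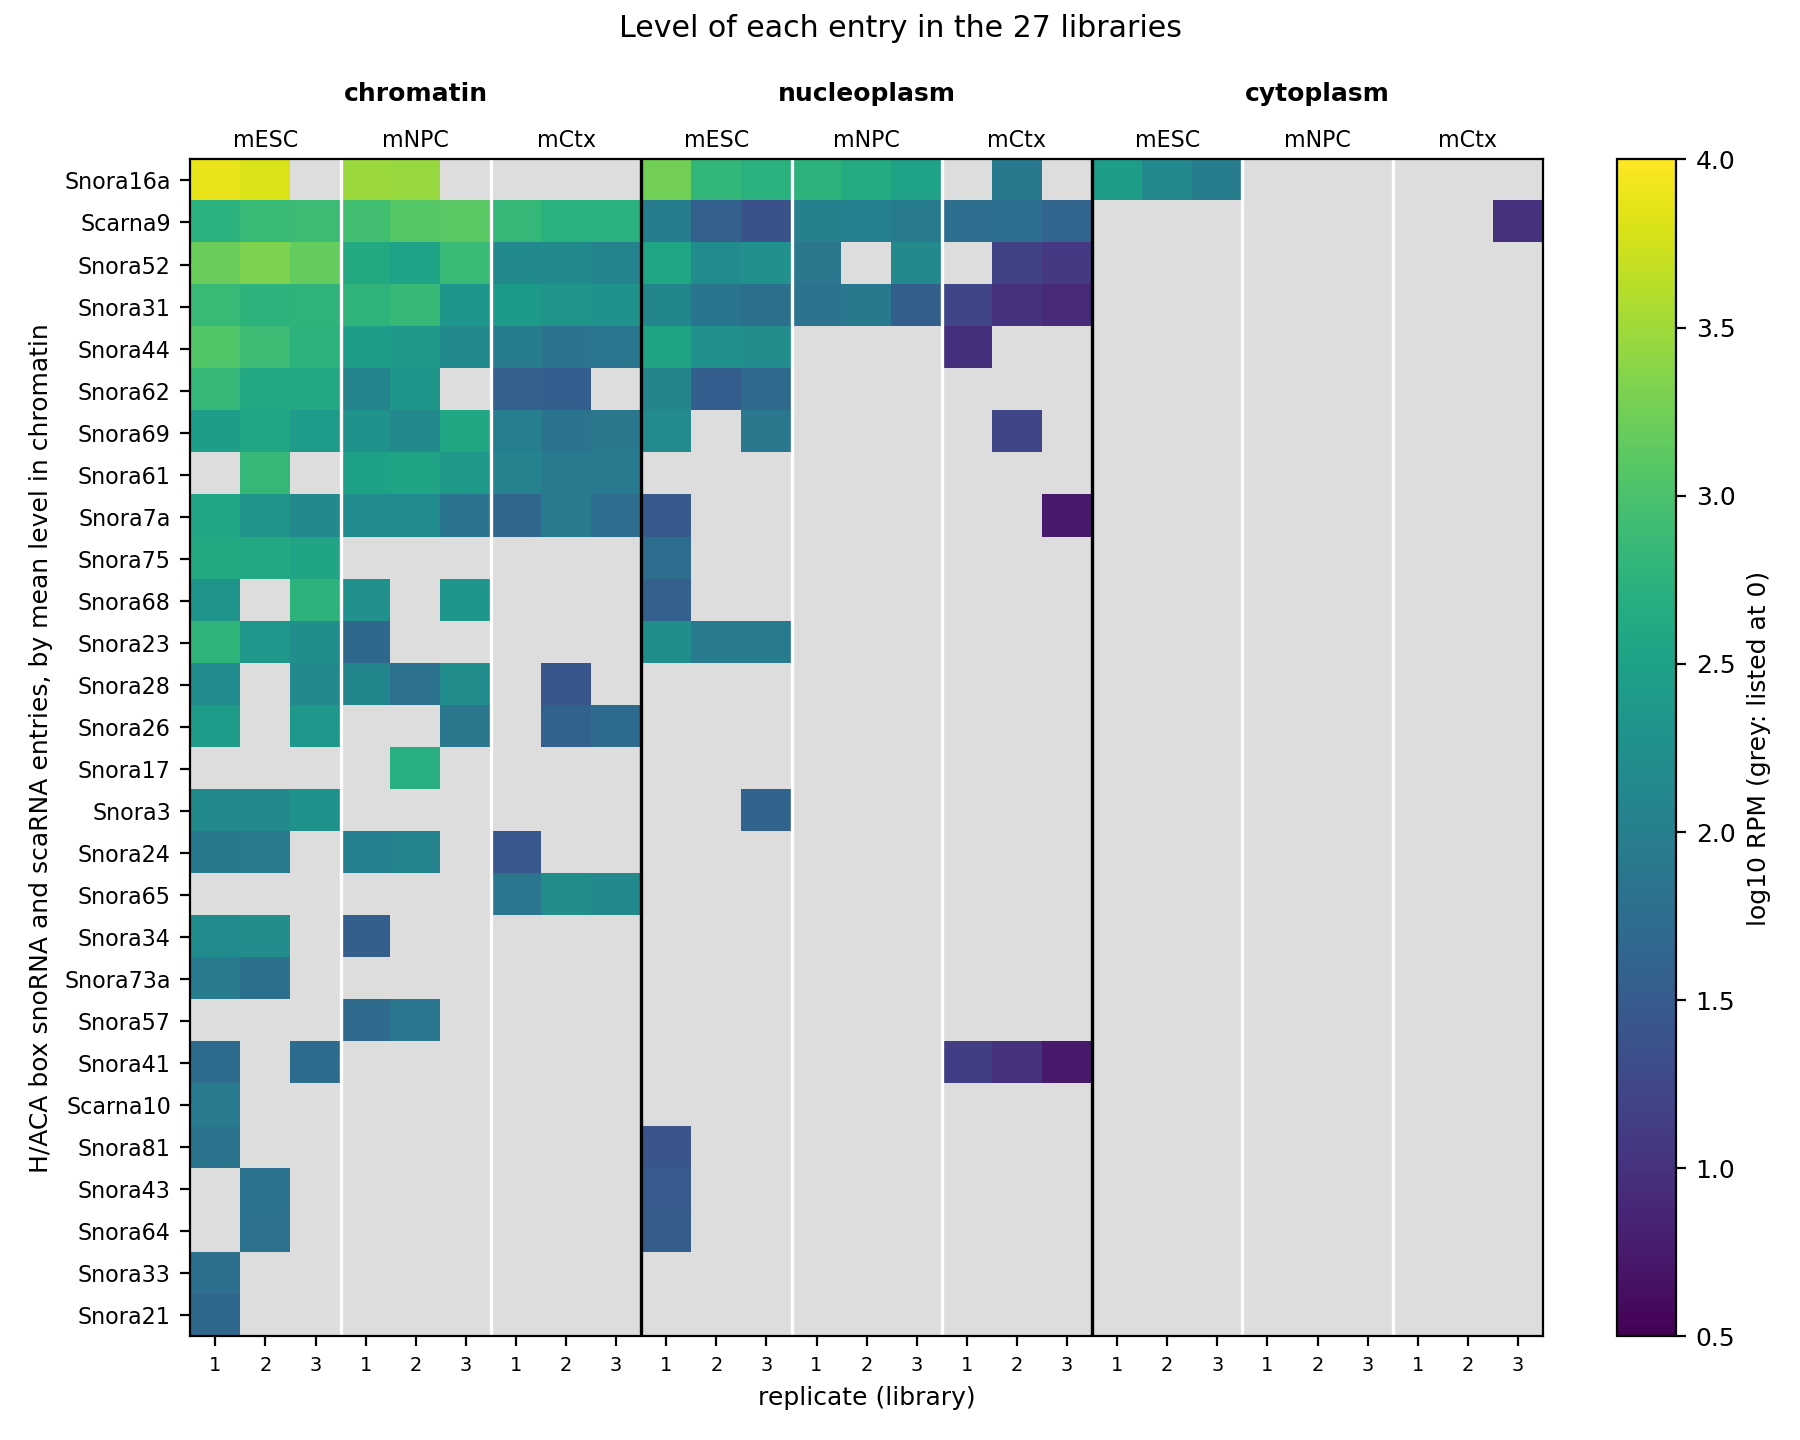
Level of each of the 28 entries (rows, ordered by mean RPM in chromatin) in the 27 libraries (columns, grouped by fraction and cell type), coloured by log10 RPM, with grey for values listed at 0. Chromatin holds 121 of the values above 0, nucleoplasm 56 and cytoplasm 4, and in chromatin fewer rows are coloured in mCtx (12) than in mESC (25).

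Summed over the 28, the level in mESC chromatin was 15482, 13478 and 6036 RPM, and without Snora16a it was 7812, 7126 and 6036 RPM. In mNPC chromatin it was 6478, 7036 and 3549.9 RPM with and 3539, 4118 and 3549.9 RPM without that entry. In mCtx chromatin it was 1580.2, 1492 and 1359 RPM, with Snora16a at 0. Without Snora16a the 3 cell types did not overlap. As a share of the reads of the snoRNA class, which does not depend on how much other RNA a fraction held, the entries without Snora16a made up 1.83%, 1.77% and 1.80% in mESC chromatin, 1.73%, 1.54% and 1.01% in mNPC chromatin and 0.845%, 0.871% and 0.724% in mCtx chromatin. The mCtx shares were thus below all mESC and mNPC shares. With Snora16a included the mESC shares were 3.63%, 3.34% and 1.80%, and the mNPC shares 3.16%, 2.64% and 1.01%, so that the mNPC libraries then overlapped those of mESC. No test was made on these sums.

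**Figure D2:**
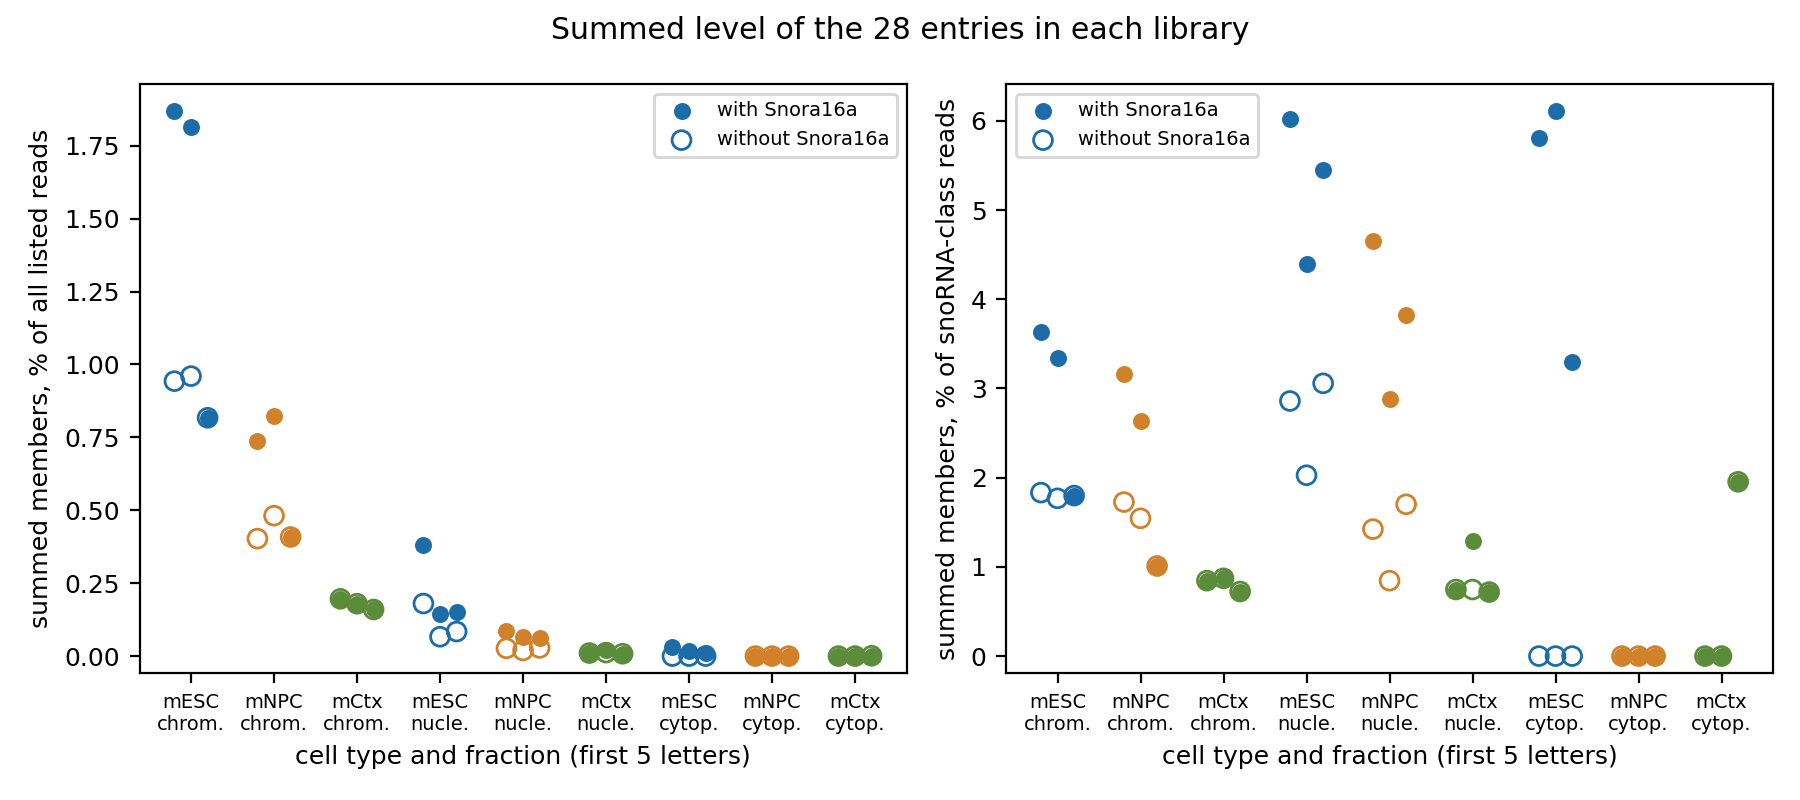
Summed level of the 28 entries in each library, as a percentage of all listed reads (left panel) and of snoRNA-class reads (right panel), by cell type and fraction; filled points include Snora16a and open points leave it out. In chromatin the open points lie between 1.77% and 1.83% of snoRNA reads in mESC and between 0.724% and 0.871% in mCtx.

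The fractions were compared within each cell type with limma on log2(RPM + 1), fitted over every entry that reached 1 RPM in 3 or more libraries and adjusted by the Benjamini-Hochberg method, with 0.05 as the threshold. Of the 28, 19 entered the test. The other 9 were too rarely above 0: Snora33, Snora21, Snora81, Snora64, Snora57, Snora43, Snora17, Snora73a and Scarna10. Chromatin was called higher than cytoplasm for 16 entries in mESC, 12 in mNPC and 8 in mCtx, and lower for 0, against 24.9%, 19.3% and 20.2% of the 851 tested entries called higher. In lower calls the background was 29.5%, 19.5% and 23.9%, and at an unadjusted p under 0.05 the lower entries were likewise 0 in each cell type. Entries that passed the filter only because they were high in chromatin had to differ, so these counts describe the set and are no independent support. The 6 entries above 0 in all 9 chromatin libraries were called in each of the 3 cell types. With every value under 59.1 RPM raised to that level, the highest of the libraries' lower limits, the counts were 14, 11 and 4. Backgrounds over all tested entries are given for the fit on log2(RPM + 1) alone. Counts under this and other settings therefore stand without a background and are not read as results about the set.

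Against nucleoplasm, chromatin was higher for 13 entries in mESC, 10 in mNPC and 8 in mCtx (background 19.9%, 16.9% and 14.9%). It was lower for 0, 0 and 1 (background 30.9%, 10.9% and 17.2%), and the same at an unadjusted p under 0.05. The lower call was Snora41, a guide snoRNA of the Eef1b2 gene, in mCtx: 14.3, 10.1 and 5.68 RPM in nucleoplasm and 0 in the 3 chromatin libraries, whose lowest listed values were 23.6, 19.4 and 25.1 RPM. Its nucleoplasmic values would all have been listed as 0 in chromatin, and the call ended with the common lower limit. Under that limit the mCtx count of chromatin against nucleoplasm was 4 higher and 0 lower; with libraries centred to the same median it was 3 higher and 0 lower.

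Nucleoplasm was higher than cytoplasm for 7 entries in mESC, 4 in mNPC and 3 in mCtx, with 0 lower (background higher 14.0%, 9.4% and 13.5%, lower 5.17%, 6.11% and 11.8%). The lower entries were also 0 at the unadjusted threshold. The higher calls rested on low values: with the common lower limit 2, 1 and 0 were called. With centred libraries the mESC result turned to 1 higher and 4 lower. Scarna9 and Snora31 were among the called in each cell type, and the third entry in mCtx was Snora41.

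Fold differences between chromatin and nucleoplasm could be given where all 6 libraries were above 0. Scarna9 was 13.0 times as high in chromatin as in nucleoplasm in mESC, 11.4 times in mNPC and 11.0 times in mCtx. Snora31 was 7.30, 8.10 and 18.4 times as high. In mESC the ratio was 7.48 for Snora52, 7.16 for Snora62, which is also known as E2, 3.58 for Snora44 and 2.92 for Snora23. Of these, Snora62 (limma adjusted p = 0.0860) and Snora23 (limma adjusted p = 0.221) did not pass the threshold, although their libraries did not overlap. Snora52 passed narrowly (limma adjusted p = 0.0488) and did not when any 1 of the 6 libraries was left out (0.0561 to 0.12). Centring the libraries took the calls of Scarna9 and Snora31 to adjusted p between 0.0854 and 0.484 in the 3 cell types, all with chromatin higher, and ended those of Snora52 (0.286) and Snora44 (0.507) in mESC.

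**Figure D3:**
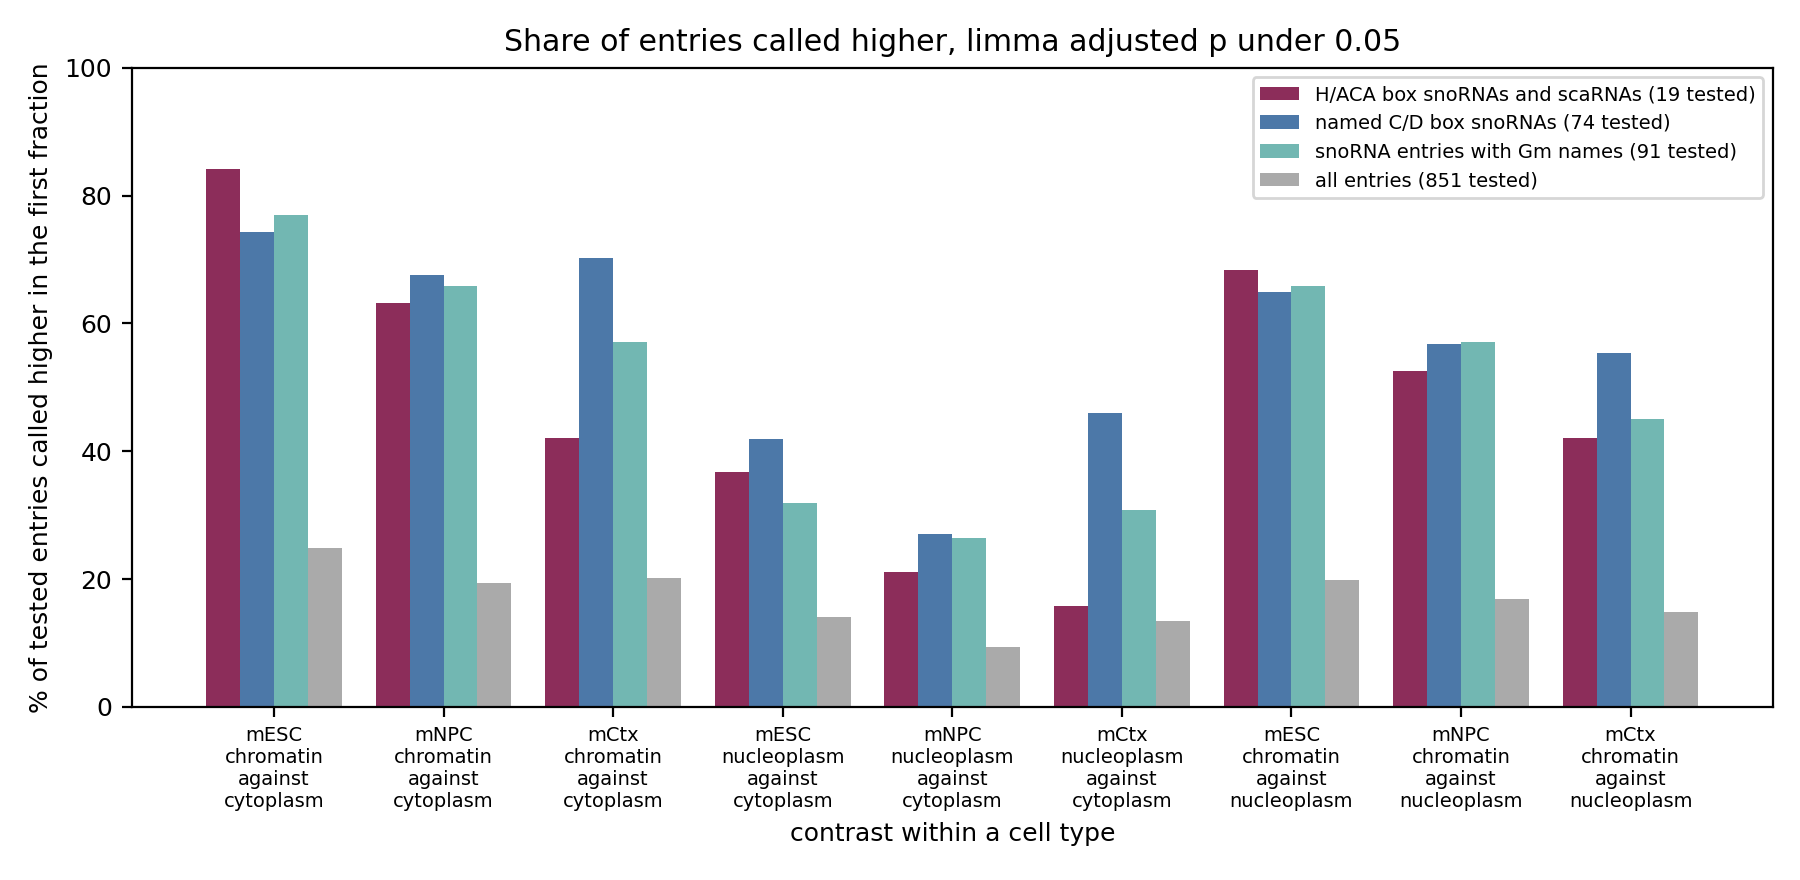
Percentage of tested entries called higher in the first-named fraction (limma adjusted p under 0.05) in the 9 contrasts of fractions, for the H/ACA and scaRNA entries (19 tested), named C/D box snoRNAs (74), Gm-named snoRNA entries (91) and all entries (851). In chromatin against cytoplasm the first bar falls from 84.2% in mESC to 42.1% in mCtx, where the C/D bar stands at 70.3%.

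Box C/D guide RNAs were mostly called higher in chromatin too. Of 74 tested C/D box snoRNAs, 55, 50 and 52 were higher in chromatin than in cytoplasm in mESC, mNPC and mCtx, or 74.3%, 67.6% and 70.3%. The H/ACA and scaRNA entries stood at 84.2%, 63.2% and 42.1% of the 19 tested. Median log2 differences were 7.35, 5.11 and 3.48 for the 19, 7.83, 7.98 and 7.29 for the C/D snoRNAs and 0.00 in each cell type over all tested entries. Among the called H/ACA and scaRNA entries, 16 of 16, 12 of 12 and 7 of 8 were at 0 in all cytoplasm libraries of the cell type. The medians of the 19 therefore depend on the pseudocount and are not sizes of enrichment. Ribosomal RNA entries, mostly 5S rRNA, had 0, 0 and 1 of 14 higher and 5, 3 and 0 lower. The RNA had been rRNA-depleted, so these counts are not read as levels of the guides' targets. Spliceosomal snRNAs, the targets of scaRNAs, had 0, 2 and 2 of 4 higher and 1, 0 and 0 lower. Whether these lists differ from the Snora and Scarna entries was not tested.

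The levels in chromatin were then compared between the cell types, which asks how the guide RNAs differ from stem cell to progenitor to neuron. In bulk samples, fewer cells of a type and less RNA per cell cannot be told apart. From mESC to mNPC 1 of the 19 tested entries was higher and 6 were lower (background 15.9% and 29.0%). From mNPC to mCtx 1 was higher and 2 were lower (16.0% and 11.9%). Between mCtx and mESC 2 were higher and 11 lower (22.8% and 29.3%). Of these 11, only 3 had all 6 compared libraries above 0, and 7 were at 0 in every mCtx chromatin library. From mESC to mNPC, 3 of the 6 lower entries were likewise at 0 in every mNPC chromatin library. Several of the lower entries passed the filter only with their mESC libraries, so the counts and the median that follows are no independent support. The median log2 difference of the 19 between mCtx and mESC was -3.32, beside -1.22 for the C/D snoRNAs, where 29 of 74 were lower, and 0.00 over all tested entries.

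Snora52, hosted by the gene of a large-subunit ribosomal protein, was the highest per length in mESC among the entries above 0 in all 3 chromatin libraries. Its chromatin level was 1589, 2128 and 1496 RPM in mESC, 429, 334 and 750.1 RPM in mNPC and 144, 149.7 and 118 RPM in mCtx. No 2 cell types overlapped, and the mESC mean was 12.7 times the mCtx mean. In limma the difference between mCtx and mESC was -3.64 on the log2 scale (SE 1.22, adjusted p = 0.0165). The step from mESC to mNPC did not pass (limma adjusted p = 0.256) and neither did that from mNPC to mCtx (0.358); both passed with the common lower limit (3.88e-05 and 0.00011). With centred libraries the call for mCtx against mESC ended (-2.78, adjusted p = 0.266), and the step from mESC to mNPC turned to 2.47 higher, without passing.

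Snora44, in Snhg12, followed the same order. It read 1119.8, 804 and 581 RPM in mESC, 281, 249 and 151 RPM in mNPC and 95.6, 71.2 and 74.1 RPM in mCtx chromatin. Again no 2 cell types overlapped, and the mESC mean was 3.68 times the mNPC mean and 10.4 times the mCtx mean. It fell from mESC to mNPC by 1.87 on the log2 scale (SE 0.59, limma adjusted p = 0.0128), which turned to 2.45 higher with centred libraries, and the call ended without mESC replicate 1 (adjusted p = 0.0569) or mNPC replicate 3 (0.057). Between mESC and mCtx it fell by 3.32 (SE 0.59, limma adjusted p = 6.42e-05), a call that ended with centred libraries (-2.46, adjusted p = 0.272). The values in nucleoplasm were 351, 182 and 166 RPM in mESC, 0 in the 3 mNPC libraries and 9.26, 0 and 0 RPM in mCtx.

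Snora31 stood closer together. In chromatin it read 751, 574 and 595 RPM in mESC, 602, 694 and 216 RPM in mNPC and 257, 207 and 191 RPM in mCtx. Replicates 1 and 2 of mNPC lay within the mESC range and replicate 3 within that of mCtx, while mESC and mCtx did not overlap. The mESC mean was 2.93 times the mCtx mean, a fall of 1.55 on the log2 scale (SE 0.40, limma adjusted p = 0.00253). With centred libraries that call ended (-0.68, adjusted p = 0.727), and mNPC was called higher than mESC by 3.82 (adjusted p = 0.0294), where the difference as fitted was -0.50 (0.361). From mNPC to mCtx the difference was -1.05 (limma adjusted p = 0.0574), and it passed without mNPC replicate 3, at -1.57 (0.00213). In nucleoplasm Snora31 was above 0 in all 9 libraries, at 129, 73.3 and 61.0 RPM in mESC, 68.9, 81.6 and 36.2 RPM in mNPC and 17.3, 10.1 and 8.26 RPM in mCtx. There it was lower in mCtx than in mNPC by 2.28 (SE 0.40, limma adjusted p = 0.000105), a call that ended with the common lower limit.

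Snora69 and Snora7a, hosted by Rpl39 and Rpl32, also had their lowest chromatin levels in mCtx without passing the test. Snora69 read 282, 370.5 and 274 RPM in mESC, 198, 141 and 402 RPM in mNPC and 99.2, 70.2 and 80.3 RPM in mCtx, with the mCtx values below all others. For Snora7a the values were 368, 208 and 148 RPM in mESC, 159, 159.9 and 70.9 RPM in mNPC and 44.9, 86.9 and 57.7 RPM in mCtx, so that mESC and mCtx did not overlap. The mESC means were 3.71 and 3.82 times the mCtx means (limma adjusted p = 0.238 and 0.103). Both differences passed with the common lower limit (1.58e-05 and 1.4e-05).

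**Figure D4:**
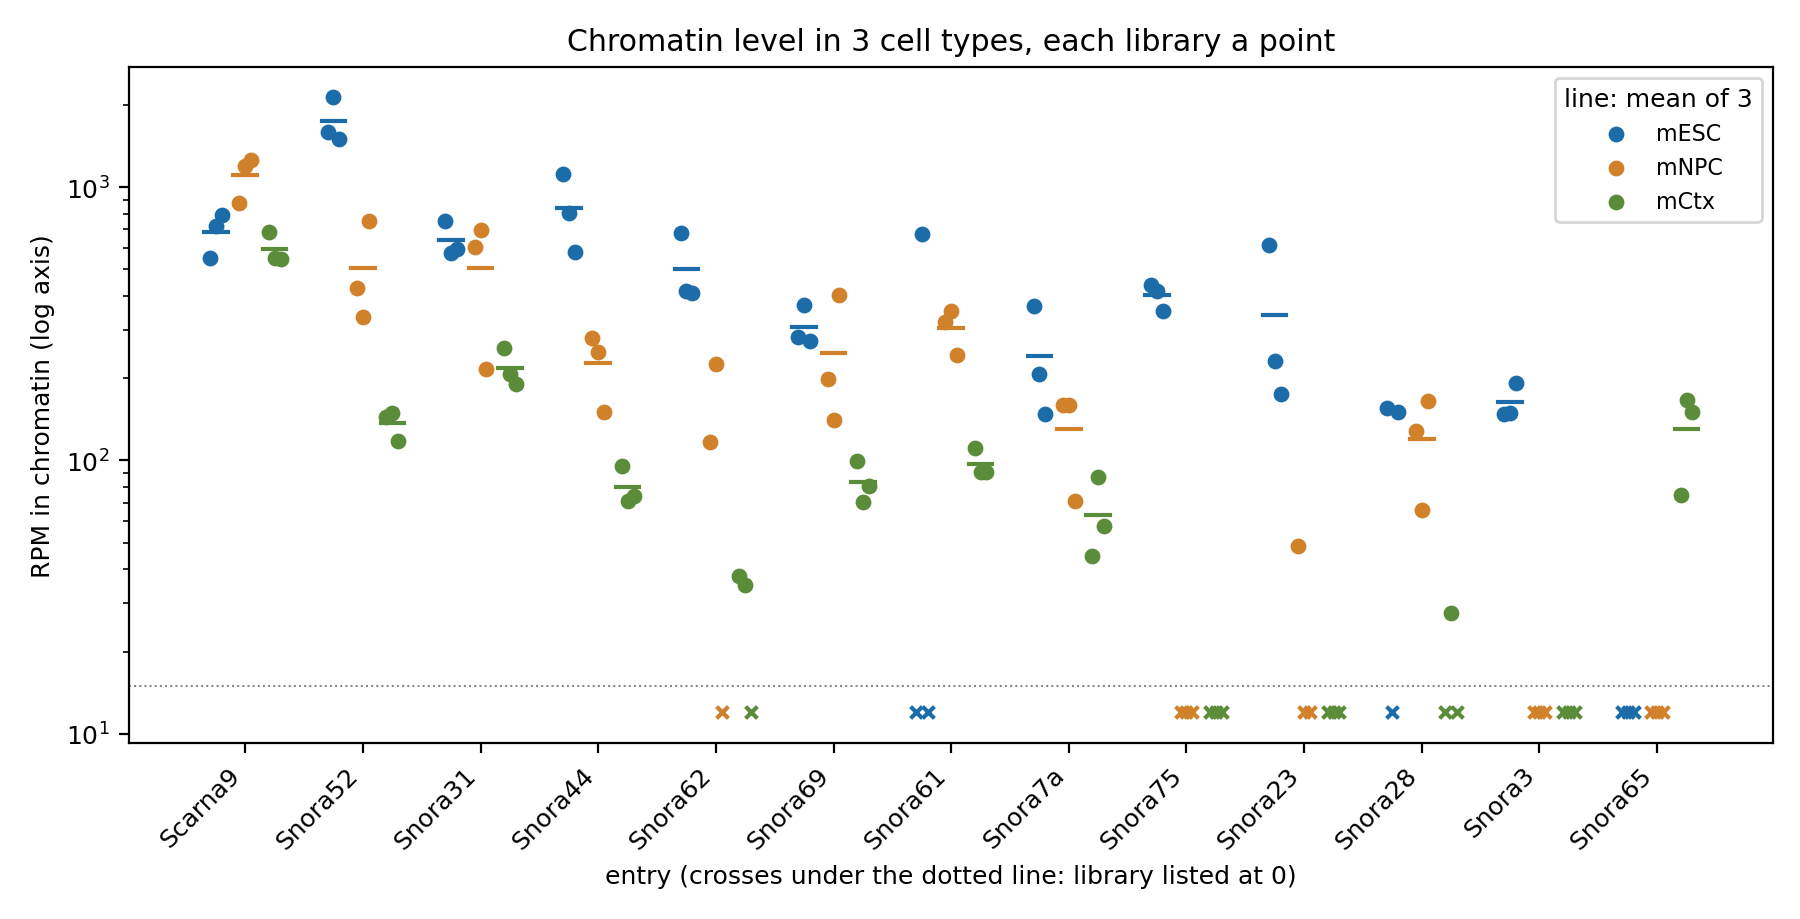
Chromatin level (RPM, log axis) of the 13 entries that were tested and above 0 in all 3 chromatin libraries of at least 1 cell type; each point is a library, short lines are means of 3 libraries above 0, and crosses under the dotted line are libraries listed at 0. Snora52 and Snora44 step down from mESC to mNPC to mCtx, Scarna9 lies within 545 to 1258 RPM throughout, and Snora65 has points in mCtx alone.

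In chromatin, a second group was above 0 in all 3 mESC libraries and in few or no libraries of the other cell types. Snora75, the guide also known as U23, read 438, 416 and 353 RPM there and 0 in all 6 chromatin libraries of mNPC and mCtx. Snora3, in Rpl27a, read 148, 149 and 192 RPM against 0 in the same 6. Snora23, in Ipo7, read 613, 230.4 and 175 RPM in mESC, 48.7, 0 and 0 RPM in mNPC and 0 in mCtx. All mESC values of these 3 entries were at least 148 RPM, above the highest lower limit of any mNPC or mCtx chromatin library. Yet a 0 also stood beside such values within a group, as for Snora28 in mESC chromatin (156, 0 and 151 RPM). The 0s are therefore not read as absence. Each of the 3 entries was lower in mNPC (limma adjusted p = 6.41e-08, 2.35e-07 and 6.62e-06) and in mCtx (6.75e-08, 2.39e-07 and 1.98e-07). The calls for mNPC ended under centring for Snora3 (-3.02, adjusted p = 0.094) and Snora23 (-1.99, adjusted p = 0.23). Snora75 and Snora3 passed the filter through mESC libraries alone and so had to differ. Snora23 had 1 library above 0 outside mESC, too few to pass the filter. Its p-values are therefore no independent support either.

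Snora62 was also highest in mESC. Its chromatin values were 679.5, 416 and 411 RPM in mESC, 117, 226 and 0 RPM in mNPC and 37.8, 35.1 and 0 RPM in mCtx, so all mESC libraries were above all others. It was lower in mNPC than in mESC (limma adjusted p = 0.0234) and in mCtx than in mESC (0.00264). The call for mNPC rested on replicate 3, the library at 0, and ended without it (adjusted p = 0.232) and without mESC replicate 1 (0.0685).

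Snora65, in Rpl12, went the other way. It read 74.6, 166 and 150.0 RPM in mCtx chromatin and 0 in the other 24 libraries. Its call against mNPC (limma adjusted p = 5e-16) and mESC (2.5e-16) had to follow, since it passed the filter through that group alone. Each mCtx value was above the lower limits of the mESC and mNPC chromatin libraries, of which the highest was 59.1 RPM. The 0s in those libraries are again not read as absence. Snora65 has 3 near-identical annotated copies, none of them an entry of the table.

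Snora28, in the gene of translation factor Eif5, read 156, 0 and 151 RPM in mESC, 128, 65.8 and 165 RPM in mNPC and 0, 27.7 and 0 RPM in mCtx chromatin. It was lower in mCtx than in mNPC (limma adjusted p = 0.00552), with no overlap. The count of entries lower in mCtx than in mNPC varied with the setting: 2 as fitted, 10 with the common lower limit, 7 with a pseudocount of 10 RPM, 6 without mNPC chromatin replicate 3 and 14 with centred libraries, with 1 entry higher in each of these except the last, where 0 were higher.

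Centring the libraries changed directions as well as counts. It brings all libraries to the same median over the tested entries, but that median was 0 in 11 of the 27 libraries. Over the contrasts, the median log2 difference of the 851 entries shifted by -4.49 to 5.67, and by 4.32 for chromatin of mNPC against mESC. Under it 7 entries were higher and 1 lower in mNPC than in mESC chromatin, and 1 higher and 7 lower in mCtx than in mESC. Rescaling to all reads other than snoRNA, which moved that median by between -0.51 and 0.71, left 1 higher and 7 lower, and 1 higher and 13 lower.

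The 3 H/ACA entries of Snhg12 and their neighbour, the C/D snoRNA Snord99, share a host transcript and differed from each other. Snora16a, which falls outside the rule for full values and is shown because of its levels, read 0 in the 3 mCtx chromatin libraries. Snord99, separated from it by 1090 bases, read 0, 0 and 37541 RPM in mESC, 12131, 11542 and 36470.5 RPM in mNPC and 21328, 16278 and 18923 RPM in mCtx chromatin. In mESC chromatin each library listed above 0 either Snora16a or Snord99. In mNPC chromatin replicate 3, where Snora16a was 0, Snord99 was about as high as in mESC replicate 3. In nucleoplasm both entries were above 0 in all 6 mESC and mNPC libraries: Snora16a read 1773, 660.2 and 549 RPM in mESC and 577, 443 and 330.4 RPM in mNPC. The annotation holds a second Snora16a gene at the same place, which is no entry of the table. How the authors' counting assigned reads among these genes was not tested.

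Differences of Snora16a between chromatin and cytoplasm therefore rested on single libraries. Its value for mNPC chromatin against cytoplasm passed (limma adjusted p = 0.0346) and failed without mNPC chromatin replicate 1 (0.163) or 2 (0.172), or without any 1 of the 3 cytoplasm libraries (0.0748 to 0.0767). For mESC chromatin against cytoplasm it did not pass (0.899), and the difference changed sign without mESC chromatin replicate 1 or 2. In chromatin Snora16a was called lower in mCtx than in mESC and in mNPC, 2 groups that each held a 0 as well. In nucleoplasm it was called lower in mCtx (0, 81.3 and 0 RPM) than in mESC, without overlap. Nucleoplasm was also called higher than cytoplasm for it in mNPC, where all cytoplasm libraries were at 0. Snora61 was above 0 in every mNPC chromatin library, at 322, 353 and 242 RPM, and in every mCtx one, at 111, 90.6 and 90.4 RPM. It was called higher in mNPC than in mESC (limma adjusted p = 0.00578) and in mCtx than in mESC (0.0495). Both calls rested on the mESC libraries 1 and 3, listed at 0. The mESC mean, 224 RPM, was above that of mCtx, 97.3 RPM, and with the common lower limit the difference between mCtx and mESC became -0.46 (adjusted p = 0.639). Neither call held without mESC chromatin replicate 1 or without replicate 3 (0.0553 and 0.0537 for mNPC, 0.316 and 0.305 for mCtx).

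**Figure D5:**
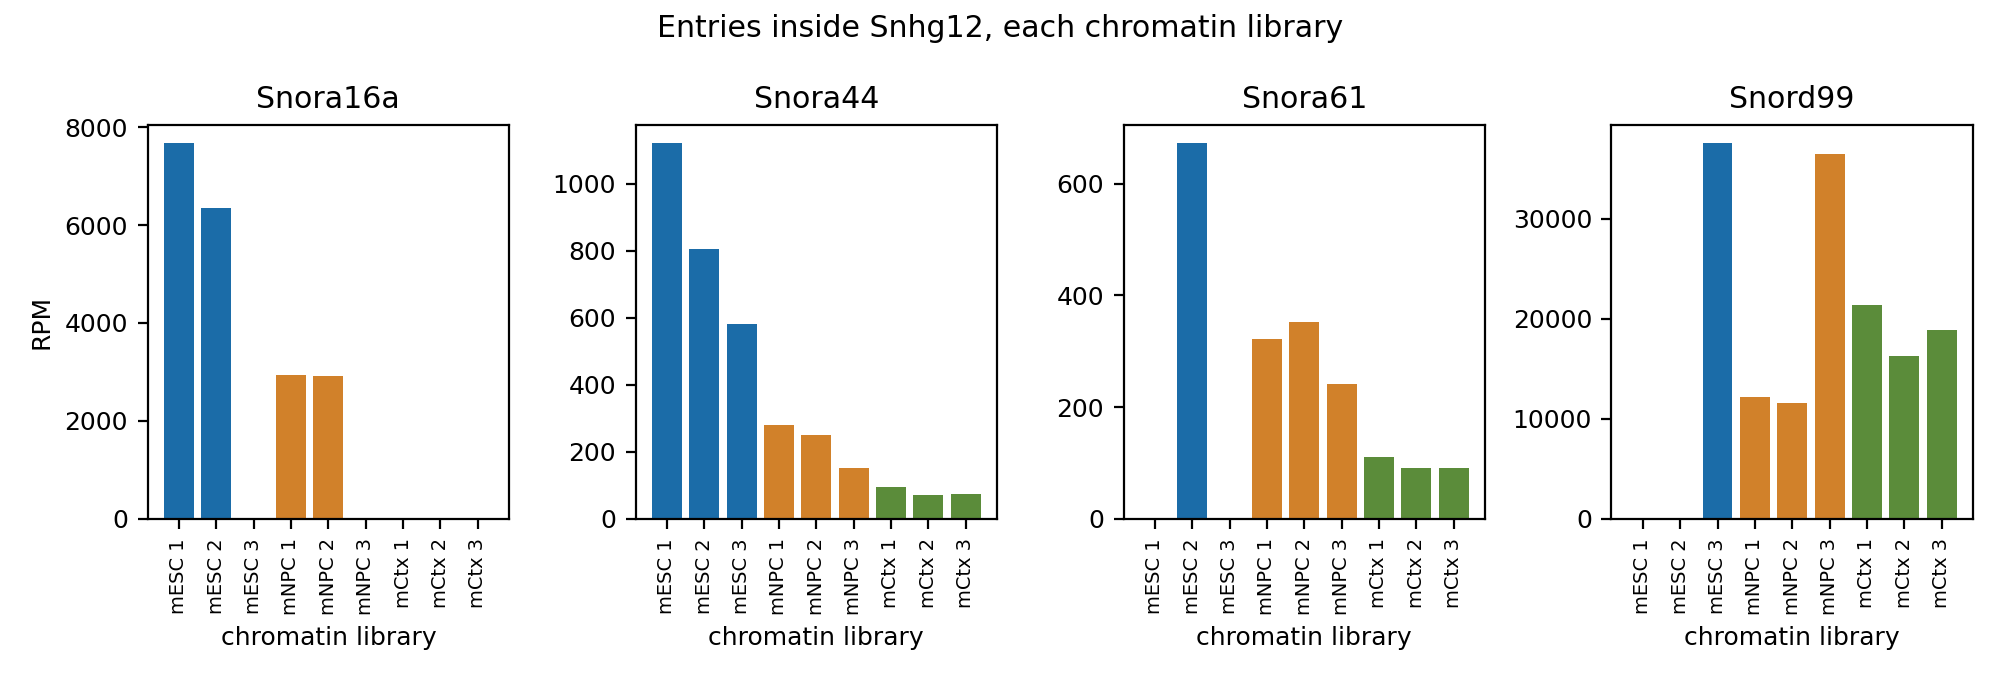
RPM of the 4 entries inside Snhg12 in each of the 9 chromatin libraries (bars; each panel has its own axis from 0). Snora16a is at 0 in replicate 3 of mESC and mNPC and in all of mCtx, where Snord99 stands between 16278 and 37541 RPM, and Snora44 is above 0 in all 9.

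Scarna9 was the entry whose chromatin level varied least between cell types among the 6 seen in all 9 libraries, with means within a range of 1.87 times. It read 550.3, 718 and 789 RPM in mESC, 877, 1195 and 1258 RPM in mNPC and 687, 549 and 545 RPM in mCtx. The mNPC libraries were above all others, while mESC and mCtx overlapped. No difference passed (limma adjusted p = 0.438 for mNPC against mESC, 0.378 for mCtx against mNPC, and 0.983 for mCtx against mESC), which does not show that the levels are the same. With the common lower limit the difference between mNPC and mESC, 0.69, passed (0.00168), and that between mCtx and mNPC, -0.89, passed too (0.000304). In nucleoplasm Scarna9 was above 0 in all 9 libraries, at 97.3, 38.0 and 23.6 RPM in mESC, 107, 102 and 84.5 RPM in mNPC and 57.3, 59.6 and 44.4 RPM in mCtx.

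Levels were also taken per 100 nt of annotated length. Because a Snora RNA could enter the libraries only as a shorter fragment, this does not make entries of different length fully comparable. On this scale Scarna9 was highest in mNPC chromatin (1586 RPM per 100 nt) and mCtx chromatin (848). Snora52 was highest in mESC chromatin (1268 RPM per 100 nt), followed by Scarna9 (979.9) and Snora44 (647). Snora31 was next after Scarna9 in mNPC (388) and mCtx (168). This order covers the entries above 0 in all 3 chromatin libraries of a cell type, which leaves out Snora16a. In mCtx chromatin Scarna9 alone made up 43.5%, 36.8% and 40.1% of the summed level of the 28. The Gm24339 entry, separated from Scarna9 by 130 bases, read 392, 0 and 395 RPM in mESC, 663, 809 and 703 RPM in mNPC and 758, 0 and 718 RPM in mCtx chromatin. Scarna10, also known as U85, a guide with both C/D and H/ACA parts for U5 snRNA, is 325 nt long and was above 0 only in mESC chromatin replicate 1, at 90.9 RPM.

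The remaining entries were seen in few libraries. Snora68 was above 0 in 5 libraries, at 37.5 to 581 RPM. Snora26 was also above 0 in 5, at 38.8 to 263 RPM, and Snora24 in 5, at 28.3 to 118 RPM. Snora34 was above 0 in 3, at 35.7 to 163 RPM. Among them, Snora68 and Snora34 were lower in mCtx than in mESC chromatin (limma adjusted p = 0.0183 and 0.00494). Both were listed at 0 in all mCtx libraries and passed the filter only with their mESC libraries. These calls are thus no independent support, and each entry was also at 0 in a mESC chromatin library. Snora41 was above 0 in 2 mESC chromatin libraries, at 55.0 and 54.8 RPM, each at or near its library's lower limit, and in the 3 mCtx nucleoplasm libraries given above.

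Of the 9 entries not tested, Snora73a, the U17 RNA that takes part in the processing of pre-ribosomal RNA, was above 0 in 2 libraries of mESC chromatin (60.99 and 83.7 RPM), and Snora57 in 2 of mNPC chromatin (52.0 and 75.3 RPM). Snora17 was above 0 in 1 library only, mNPC chromatin replicate 2, at 508 RPM. Snora81, Snora43 and Snora64 were each above 0 in 1 mESC chromatin and 1 mESC nucleoplasm library, at 26.7 to 69.4 RPM. Snora33 and Snora21 were each above 0 in mESC chromatin replicate 1 alone, at 62.2 and 47.9 RPM.

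In nucleoplasm, 5 of the 19 tested entries were lower in mNPC than in mESC and 0 were higher (background 35.8% and 12.8%). The 5 called entries were Snora23, Snora44, Snora52, Snora62 and Snora69. At an unadjusted p under 0.05 limma gave 7 lower and 0 higher. Between mCtx and mNPC 1 was higher, Snora41, and 1 lower, Snora31 (background 23.5% and 10.3%). Between mCtx and mESC 1 was higher, again Snora41, and 7 lower (20.9% and 31.3%). The mCtx values of Snora41 were 14.3, 10.1 and 5.68 RPM. The lowest listed values in nucleoplasm were 30.2 to 34.0 RPM in mNPC and 15.7 to 27.1 RPM in mESC. Its mCtx values would all have been listed as 0 in those libraries. With centred libraries the count for mNPC against mESC turned to 12 higher and 0 lower. That for mCtx against mNPC was 0 higher and 14 lower, and that for mCtx against mESC 1 higher and 3 lower. Over all tested entries, centring moved the median log2 difference of these contrasts by 5.67, -4.49 and 1.18. The common lower limit gave 1 higher and 3 lower, 0 higher and 1 lower, and 0 higher and 4 lower in the same order.

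Whether the difference between chromatin and cytoplasm itself differed between cell types was tested as an interaction. Between mNPC and mESC it was smaller in mNPC for 4 entries, Snora75, Snora3, Snora23 and Snora41, and larger for 0 (background 11.9% and 18.9%). At an unadjusted p under 0.05 limma gave 5 smaller and 1 larger. Between mCtx and mNPC it was larger in mCtx for 1 entry, Snora65, and smaller for 0 (background 6.11% and 11.2%). Here the unadjusted threshold gave 1 larger and 2 smaller. Since all 5 called entries were at 0 in the cytoplasm of these cell types, the interaction repeats the chromatin difference given above.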

How the data were processed

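Small RNA was read in 27 libraries, 3 for each of 3 fractions of 3 cell types. The deposited table gives RPM, which the authors normalized to library size, per the file headers. RNA under 200 nt was selected, rRNA-depleted and made into libraries, per the labels' protocols. The aligner, counting rule and depth were not given in the sources used here. Of the values under 20 times a library's lowest, 63.6% to 76.6% were whole 20ths of it (within 0.03 of a step) in 25 libraries, and 5.88% and 7.76% in the other 2. This is short of nearly all, so reads were not recovered and no count model was used.

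Members were matched by symbol. Sequences and hosts came from GENCODE vM21 (GRCm38), and copies were found with blastn 2.17.0; 1 host gene is not reported here. limma 3.58.1 in R 4.3.3 was run on log2(RPM + 1), with intensity trend and robust variance, for the 851 of 1013 entries that reached 1 RPM in 3 or more libraries. It fitted 9 group means with 18 residual degrees of freedom over 17 contrasts. P-values were adjusted by Benjamini-Hochberg over all tested entries within a contrast, with 0.05 as threshold. Log differences against a group at 0 depend on the pseudocount and are not given as folds. The fit was tested on simulated data.

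Per-library values and tests are given for entries tested and above 0 in all 3 chromatin libraries of a cell type. Sequences are those of the 4 highest in chromatin, the largest called difference there and the highest scaRNA. Alternatives were pseudocount 10 RPM, a common lower limit, filters of 1 or 9 libraries, centred or rescaled libraries, a fit of the compared libraries only, the replicate number as a block, and leaving out each library. The members and lists were chosen with earlier results of these data known.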

Additional observations from a re-analysis of the deposited data

Results flagged for a closer look

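For 5 entries the contrast of chromatin with cytoplasm was unequal across cell types by a test of that difference (limma interaction on log2(RPM + 1)). Against mESC, the difference in mNPC was -8.65 for Snora75 (adjusted p = 2.54e-05), -7.35 for Snora3 (6.91e-05), -6.31 for Snora23 (0.000806) and -3.87 for Snora41 (0.0267). The call of Snora41 ended without mESC chromatin replicate 1 (0.0812) or 3 (0.0789) and with the common lower limit. For Snora65 the difference in mCtx against mNPC was 6.95 (8.1e-13). With centred libraries all 5 calls ended (0.0614 for Snora75, 0.152 for Snora3, 0.209 for Snora23, 0.695 for Snora41 and 0.0886 for Snora65). Since the cytoplasm values were all 0, these sizes depend on the pseudocount. Snora75, Snora3 and Snora65 entered the test only through libraries of the cell type where they are high, so they had to differ and their p-values are no support. Snora23 would not have entered without its mESC libraries, so its p-value is no independent support either.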

How the results depend on the processing

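The counts of H/ACA and scaRNA entries called depended most on low values and on scaling; apart from filters and fits of fewer libraries, which change the number of entries or samples tested, the cause was not tested. With the stricter filter the counts were 7 for mESC chromatin against cytoplasm, 6 for mESC chromatin against nucleoplasm, 2, 1 and 5 for chromatin of mNPC against mESC, mCtx against mNPC and mCtx against mESC, 1 for nucleoplasm of mCtx against mNPC, and 0 for both interactions. With centred libraries they were 10, 5 and 5 for chromatin against cytoplasm or nucleoplasm in mESC and against nucleoplasm in mNPC, 5, 0 and 3 for the mCtx contrasts of chromatin with cytoplasm, nucleoplasm with cytoplasm and chromatin with nucleoplasm, 5 (1 higher, 4 lower) for mESC nucleoplasm against cytoplasm, 8, 14 and 8 for chromatin between cell types in the order above, 12, 14 and 4 for nucleoplasm, and 1 and 0 for the interactions. The common lower limit gave 2, 1 and 0 for nucleoplasm against cytoplasm in mESC, mNPC and mCtx, 4 and 4 for mCtx chromatin against cytoplasm and against nucleoplasm, 11 for chromatin of mCtx against mNPC, 1 and 4 for nucleoplasm of mCtx against mNPC and against mESC, and 9 and 5 for the interactions. Fitting only the compared libraries gave 10 and 8 for mESC chromatin against cytoplasm and nucleoplasm, 5 for chromatin of mCtx against mNPC, 3 and 4 for nucleoplasm of mNPC against mESC and mCtx against mNPC, and 4 for the mCtx interaction. A pseudocount of 10 RPM gave 8 for chromatin and 1 for nucleoplasm of mCtx against mNPC and 3 for the mCtx interaction, and no filter gave 2 for the last. In the mCtx interaction the balance turned to lower with pseudocount 10, the common lower limit, the compared libraries only and without mNPC chromatin replicate 3. Where limma called 0, the entries at an unadjusted p under 0.05 were 1 in each interaction with the stricter filter, 4 in the mCtx interaction with centred libraries, and 0 in mCtx nucleoplasm against cytoplasm with centred libraries or the common lower limit.

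Same-numbered libraries correlated in their deviations by between -0.12 and 0.187 across fractions of a cell type, not over 0.1 in every pair. Their median was 0.0512, beside -0.0241 for libraries of different number. The libraries were treated as unpaired, and shared cultures are not stated. With the replicate number as a block, chromatin of mCtx against mNPC had 6 calls in place of 3, and no other count moved by over 1.5 times.

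Leaving out each library gave 14 to 15, 8 to 12 and 8 to 9 calls for chromatin against cytoplasm in mESC, mNPC and mCtx, 10 to 12, 8 to 11 and 8 to 10 for chromatin against nucleoplasm, and 7 to 9, 2 to 3 and 3 to 4 for nucleoplasm against cytoplasm. Between mNPC and mESC, mCtx and mNPC, and mCtx and mESC it gave 4 to 8, 2 to 7 and 10 to 14 in chromatin, 4 to 8, 2 to 4 and 6 to 9 in nucleoplasm, and 3 to 6 and 1 to 3 for the interactions. The counts that moved by over 1.5 times were 2 for mNPC nucleoplasm against cytoplasm without nucleoplasm replicate 1 or 3, 4 for chromatin of mNPC against mESC without mESC replicate 1, 7 for mCtx against mNPC without mNPC replicate 3, 8 for nucleoplasm of mNPC against mESC without mESC replicate 2, 4 for mCtx against mNPC without mCtx replicate 2, and 2 for the mCtx interaction without mNPC chromatin 2, mCtx chromatin 2 or mCtx cytoplasm 1 or 2.

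Of 75 single results, 452 of 480 values with a library left out and 477 of 579 under other settings kept direction and side of the threshold. Those that changed sign were, with centred libraries, Snora16a in mESC chromatin against cytoplasm (-3.02), Scarna9 in chromatin of mCtx against mESC (0.67), and Snora52 (2.47), Snora44 (2.45), Snora31 (3.82) and Snora62 (0.29) in chromatin of mNPC against mESC; with the common lower limit, Snora61 in mCtx against mESC (-0.46); and, with a library left out, Snora16a (-0.97 and -0.84 without mESC chromatin replicate 1 and 2; over libraries left out, -0.97 to 5.48) and Snora31 (0.0254 without mNPC chromatin replicate 3; over libraries left out, -0.82 to 0.0254). Unknown depth limits every value near a library's lower limit.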

Other observations

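Among the 115 snoRNA entries that carry only a predicted-gene name, 23 were at least 120 nt long and had ACA exactly 3 bases before the 3′ end, the same tail as 21 of the 26 Snora RNAs. They were picked by sequence after the table had been examined, and the annotation does not name them as H/ACA RNAs. They may not all be separate RNAs. Gm22711 is listed at both chr11:106501243-106501377 and chr11:106501245-106501377. Gm22988 and Gm23123 both read 319.8 and 185.6 RPM in mESC chromatin replicates 1 and 2. Of the 23, 15 were tested, and chromatin was higher than cytoplasm for 12 of them in mESC, 7 in mNPC and 7 in mCtx, with 0 lower (background higher 24.9%, 19.3% and 20.2%). In chromatin 9 of the 15 were lower in mCtx than in mESC and 3 were higher (29.3% and 22.8%). All 23 were listed at 0 in every cytoplasm library. Gm22988 and Gm23123 passed the filter through mESC libraries alone and Gm25107 through mCtx chromatin alone, so they had to differ. Gm25117 and Gm23245 had 1 library above 0 outside mESC. These counts are therefore no independent support. Gm22806 read 949.5, 928 and 877 RPM in mESC, 365, 207 and 639 RPM in mNPC and 82.3, 49.6 and 80.3 RPM in mCtx chromatin, with no overlap between cell types. Gm24455 read 0, 2128 and 0 RPM, 0, 955 and 1252 RPM and 1266, 848 and 1255 RPM in the same order, with a 0 in 3 libraries beside values of at least 848 RPM.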
